A study of Mus musculus with 6 samples.

Results

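The genes of the cyclic AMP (cAMP) pathway described here are Crem, Creb1, Sik1, Pde4a, Pde4b, Pde4d, Pde3b, Pde7a, Adora2a and Adora2b, 10 in all, chosen by name. Each was represented by the brightest transcript cluster, by mean over the 6 arrays, whose platform gene symbol was exactly that of the gene. Transcript clusters are groups of probes, each group named by the array for 1 gene, for several or, here, for none. Of the 10 genes, 7 had such a cluster, 1 each, among 30142 genes with a symbol of their own on the array. The cluster of Pde4d also carries the name of a microRNA gene, and no cluster used here was named for Adora2a or Adora2b, so these 3 were not analysed here. The name of each of the 7 clusters places it on the chromosome of its gene.

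The arrays profiled hematopoietic stem cells (HSCs), the bone marrow cells that renew the blood, from CDK19-/- mice (3 arrays, called knockout below) and from wild-type mice (3 arrays), all aged 6 to 8 weeks. The kinase CDK19 sits in Mediator, the complex that passes signals from transcription factors on to the polymerase. Marrow was flushed from leg and hip bones, cells with lineage markers were depleted, and HSCs were stained and sorted by flow cytometry. The labels give the replicates as biological and do not say how many animals an array holds, how the knockout was made, in which cells Cdk19 was lost, the sex of the mice or the markers of the gate.

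cAMP is a small messenger made from ATP by adenylyl cyclases when hormones, prostaglandins or adenosine bind receptors coupled to the stimulatory G protein. The adenosine receptors encoded by Adora2a and Adora2b are of this kind. Phosphodiesterases break cAMP down and so end or confine the signal. cAMP activates protein kinase A, which phosphorylates the transcription factor CREB, encoded by Creb1. CREB binds a DNA element called the CRE and switches on a fast set of genes, among them Crem, whose short product ICER is a repressor of the same element, and Sik1, whose kinase keeps the CREB coactivators of the CRTC family out of the nucleus. Both are feedback brakes on the pathway. In HSCs, prostaglandin E2 is a known ligand that acts through cAMP.

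As a check of the labels, Cdk19 averaged 11.47 ± 0.05 in the knockout and 12.44 ± 0.06 in wild type (SD, n = 3 each), a log2 change of -0.97 (SE 0.05), with no overlap. All levels below are the deposited values, read as log2, and every change is knockout minus wild type. Of 13 HSC and progenitor markers with a cluster, 12 were bright enough to test. Markers of other cells were measured too: 7 of 8 B cell, 4 of 6 T cell, 4 of 5 erythroid, 8 of 9 granulocyte, 8 of 8 monocyte and macrophage, 5 of 6 megakaryocyte, 4 of 6 mast cell and basophil and 3 of 7 stromal and endothelial markers with a cluster were bright enough to test. Passing the limit on dim clusters is no detection call, so these counts do not say which cells were present. Correlations between arrays, taken across clusters, were 0.9966 to 0.9979 within a genotype and 0.9951 to 0.9957 between genotypes.

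The CRE is the sequence by which CREB and the CREM products recognise their targets, so the start-site windows of RefSeq (build GRCm38.p6, 250 bases before to 50 after a start) were read for it. The full palindrome TGACGTCA and its core TGACG were searched on both strands. The full motif contains the core, and a gene counted if any of its windows held the letters. Of the 10 genes, 5 had a window in the table used (Creb1, Pde4a, Pde4b, Pde4d and Adora2b). Crem, Sik1, Pde3b, Pde7a and Adora2a had none. The full motif was in none of these 5 genes, against 2.03% of 27025 genes. The core was in 2 of the 5, Pde4a and Pde4b, against 23% of all genes, and both have several windows. The windows of these 2 phosphodiesterase genes that hold the core are shown because they are the members with a match, with the matching bases in capitals. That of Pde4b lies at chr4:102421305-102421604 and that of Pde4a at chr9:21183851-21184150, both on the plus strand.
Pde4b: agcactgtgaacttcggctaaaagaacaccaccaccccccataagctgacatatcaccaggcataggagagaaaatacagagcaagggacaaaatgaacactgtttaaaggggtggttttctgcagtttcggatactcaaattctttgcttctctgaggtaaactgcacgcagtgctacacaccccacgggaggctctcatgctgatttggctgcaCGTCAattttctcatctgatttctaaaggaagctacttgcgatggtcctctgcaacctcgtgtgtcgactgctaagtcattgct
Pde4a: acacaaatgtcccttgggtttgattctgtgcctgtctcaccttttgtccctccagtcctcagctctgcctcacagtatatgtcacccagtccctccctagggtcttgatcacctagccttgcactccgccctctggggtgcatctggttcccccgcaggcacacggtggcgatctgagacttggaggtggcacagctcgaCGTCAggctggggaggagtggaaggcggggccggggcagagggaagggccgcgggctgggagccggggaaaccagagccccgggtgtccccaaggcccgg
In Pde4b the match begins at position -34 from the start site and in Pde4a at position -50.

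Of the 7 measured genes, Sik1 and Crem were higher in the knockout, Pde3b and Pde7a were lower, and Creb1, Pde4a and Pde4b did not pass (limma, Benjamini-Hochberg adjusted p under 0.05). Over all 39543 clusters tested, 2.96% passed as higher and 4.84% as lower, 7.8% in all. Over the brightest clusters of 12570 protein-coding genes, 4.75% passed as higher and 5.98% as lower, 10.7% in all. The median log2 change of the 7 was -0.18, against 0.003 over all tested clusters. All 7 were above the limit on dim clusters. With arrays shifted to a common median 1 gene passed as higher (Sik1) and 2 as lower, and after quantile normalization 2 passed as higher and 3 as lower. With any 1 array left out 1 passed as higher, and 1 as lower except without knockout array 1, where 2 did. All 7 kept their direction under every alternative tried. The labels do not say that arrays came from separate animals, so the p-values measure the spread between these arrays.

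**Figure D1:**
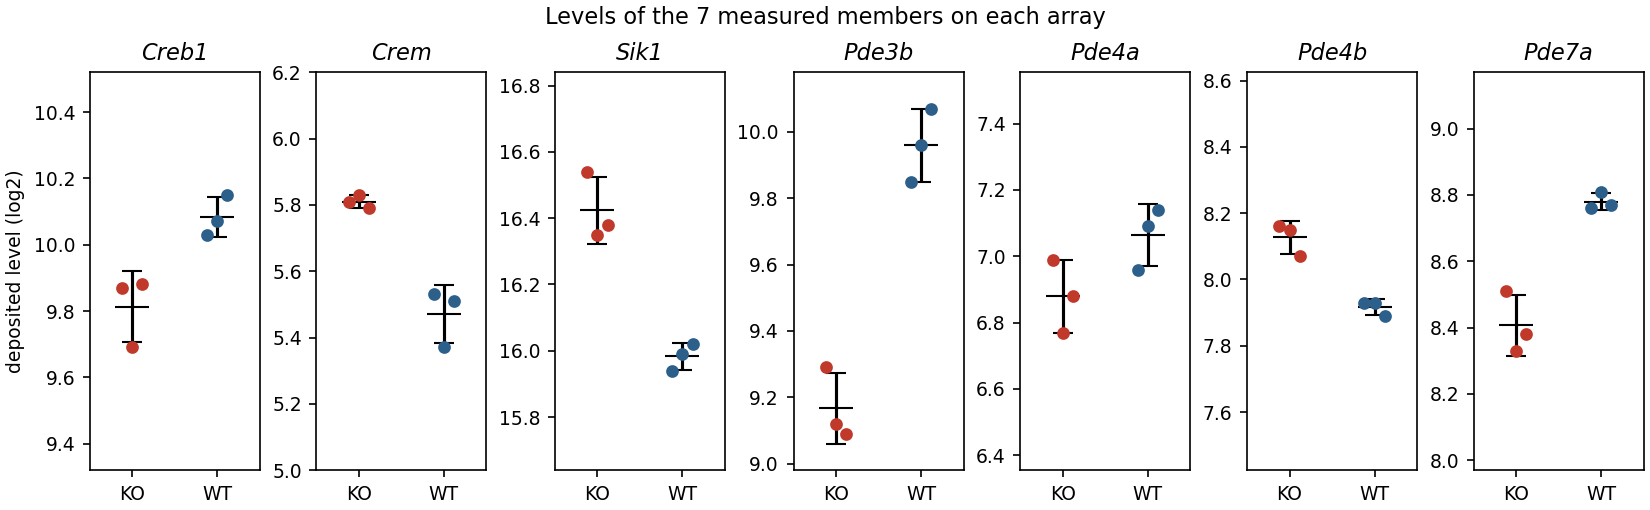
Deposited log2 level of each of the 7 measured genes on each array (points), with the mean and SD over the 3 knockout (KO, red, left) and the 3 wild-type (WT, blue, right) arrays. Each panel spans the same range of log2 units around its own centre, so that the distances between groups can be compared. In Pde4a alone the groups overlap.

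Creb1 encodes CREB, the activator at the end of the pathway. Its level was 9.87, 9.69 and 9.88 in the knockout arrays, against 10.03, 10.07 and 10.15 in the wild-type arrays. Every knockout value lay below every wild-type value. The log2 change was -0.27 (SE 0.07, 95% interval -0.44 to -0.10) and did not pass (limma, adjusted p = 0.080). After quantile normalization it did (-0.26, adjusted p = 0.0495).

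Crem gave 5.81, 5.83 and 5.79 in the knockout arrays, against 5.53, 5.37 and 5.51 in wild type. The knockout arrays lay close to each other and above all wild-type arrays. Crem rose by 0.34 (SE 0.07, 95% interval 0.18 to 0.50; limma, adjusted p = 0.032), or 1.27-fold on the scale assumed here. The call depended on every array: leaving out knockout array 1, 2 or 3 gave an adjusted p of 0.085, 0.088 or 0.072, and leaving out wild-type array 1, 2 or 3 one of 0.069, 0.10 or 0.096. Shifting the arrays to 1 median (adjusted p = 0.056) or dropping the filter on dim clusters (0.0503) also ended it. The cluster covers the gene as a whole, so CREM activators and the ICER repressor, which starts inside the gene, were not told apart.

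Sik1 gave 16.54, 16.35 and 16.38 in the knockout arrays, against 15.94, 15.99 and 16.02 in wild type. The groups were well separated, with knockout array 1 highest. Sik1 rose by 0.44 (SE 0.06, 95% interval 0.30 to 0.58; limma, adjusted p = 0.0072), or 1.36-fold. This call held in all 13 alternatives, with adjusted p between 0.0055 and 0.036. Sik2 and Sik3, the related kinases that also hold CRTC proteins in the cytoplasm, were chosen after their values were seen: they differed by 0.14 (adjusted p = 0.25) and -0.07 (adjusted p = 0.58), neither past the threshold.

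Among the phosphodiesterases, Pde3b showed the largest change of the 7 genes. PDE3B hydrolyses cAMP and is inhibited by cGMP, and in fat and liver cells insulin activates it. Its level was 9.29, 9.12 and 9.09 in the knockout arrays, against 9.85, 9.96 and 10.07 in wild type. The highest knockout array was still well below the lowest wild-type array. Pde3b fell by 0.79 on the log2 scale (SE 0.08, 95% interval of the change -1.0 to -0.59; limma, adjusted p = 0.0035), which is 1.73-fold lower. Of all tested clusters 1.74% changed by as much or more in either direction. For the other passing genes this share was larger: 7.2% for Sik1, 10.1% for Pde7a and 11.8% for Crem. The call held in all 13 alternatives, with adjusted p between 0.0029 and 0.027 and log2 changes between -0.86 and -0.74.

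Pde7a, encoding a cAMP-specific phosphodiesterase found in lymphocytes, gave 8.51, 8.33 and 8.38 in the knockout arrays, against 8.76, 8.81 and 8.77 in wild type. The groups did not overlap. The gene fell by 0.37 (SE 0.07, 95% interval of the change -0.53 to -0.21; limma, adjusted p = 0.022), or 1.30-fold lower. The call was lost without knockout array 2 (adjusted p = 0.056) or 3 (0.065) and without wild-type array 1 (0.071), 2 (0.091) or 3 (0.089). It held without knockout array 1 (log2 change -0.43, adjusted p = 0.024).

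Pde4a and Pde4b belong to the cAMP-specific PDE4 family, the target of rolipram and a main brake on cAMP in white blood cells. Pde4b gave 8.16, 8.15 and 8.07 in the knockout arrays, against 7.93, 7.93 and 7.89 in wild type. Each knockout array lay above each wild-type array, with a log2 change of 0.21 (SE 0.06, 95% interval 0.07 to 0.35) that did not pass (limma, adjusted p = 0.085). Pde4a gave 6.99, 6.77 and 6.88 in the knockout arrays, against 6.96, 7.09 and 7.14 in wild type. Here knockout array 1 lay above wild-type array 1, and the log2 change of -0.18 (SE 0.08, 95% interval -0.38 to 0.02) did not pass (adjusted p = 0.28).

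**Figure D2:**
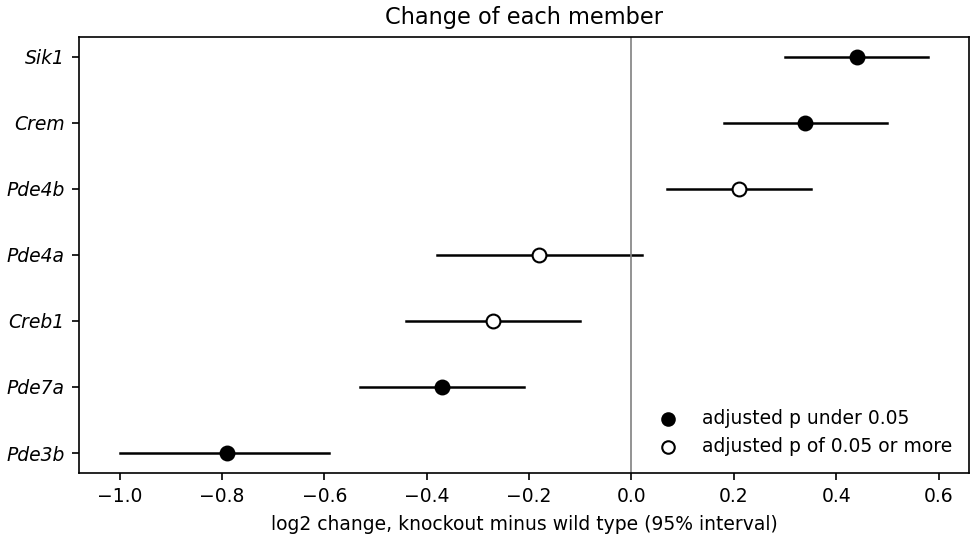
Log2 change of each measured gene, knockout minus wild type, with its 95% interval from limma, not adjusted for the number of genes. Filled points passed at an adjusted p under 0.05 and open points did not. Sik1 and Crem lie right of 0 and Pde7a and Pde3b left of it, while the interval of Pde4a spans 0.

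**Figure D3:**
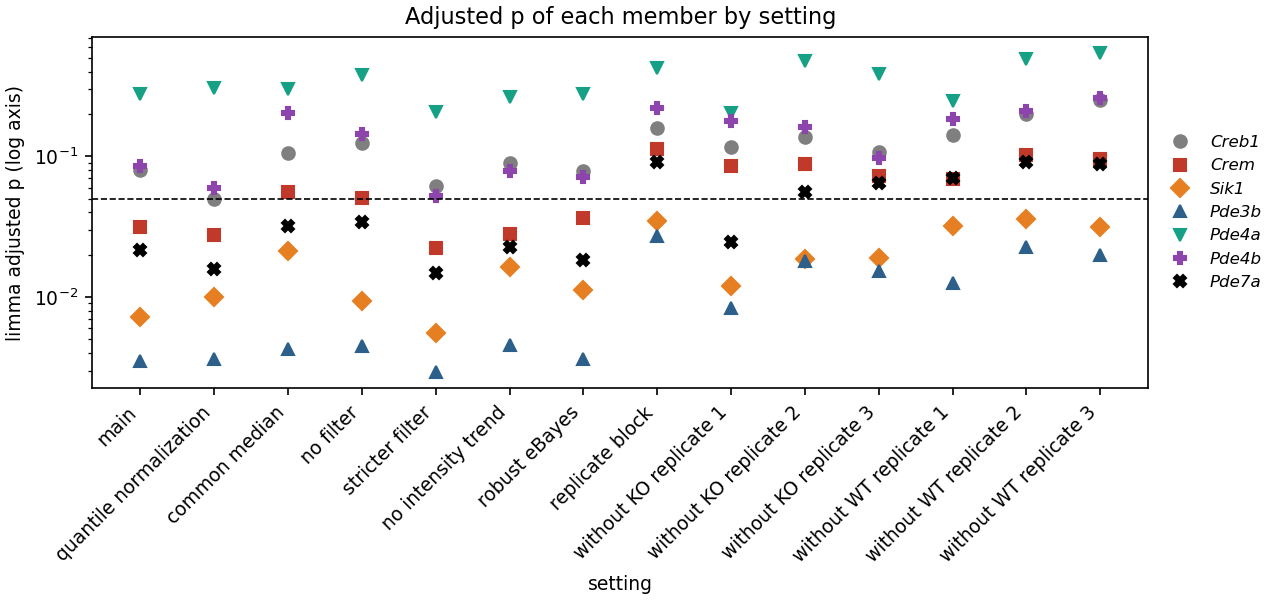
Adjusted p (limma, Benjamini-Hochberg, log axis) of each of the 7 measured genes in the fit reported (leftmost) and under 13 alternatives; the dashed line marks 0.05. Sik1 and Pde3b lie below the line throughout, Crem and Pde7a cross it, Creb1 lies just below it after quantile normalization alone, and Pde4a and Pde4b lie above it throughout.

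In all, 6 of the 7 genes had groups that did not overlap, 3 higher and 3 lower. Over all tested clusters 26.5% did not overlap, 11.6% higher and 14.9% lower. Among the 7 genes, knockout array 1 was the highest knockout array in 5 and knockout array 2 the lowest in 4. Wild-type array 1 was the lowest wild-type array in 5. No such counts over all tested clusters are given, so these do not say whether the arrays scattered unevenly. The 7 genes share the arrays, so their orders are not independent of each other.

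The log2 ratio of Pde4b to each of the 3 other measured phosphodiesterases was looked at after the values were seen, and is given as a description. Knockout minus wild type, it differed by 1.0 for Pde3b, 0.58 for Pde7a and 0.39 for Pde4a. The SDs of these ratios were between 0.08 and 0.12 over knockout arrays and between 0.03 and 0.13 over wild-type arrays (n = 3 each). Pde4b and Pde4a did not pass on their own. An exact permutation test over arrays gave p = 0.1 for each ratio. That is the smallest p possible with 3 arrays a group, so the ratios could not pass.

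The genes whose profile over the 6 arrays was most like that of Pde3b were sought among 19920 other tested genes, by the root mean square difference of centred log2 values. They were Zfp934 (0.062), Cpt1a (0.068), 5830432E09Rik (0.080), Ebf1 (0.081) and 0610039H22Rik (0.082). Zfp934 encodes a zinc finger protein, Cpt1a the enzyme that admits long-chain fatty acids to mitochondria, and Ebf1 a transcription factor of the B lineage. Their log2 changes were between -0.83 and -0.70. With 6 arrays in 2 groups, this likeness mostly restates a similar size of change.

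Several of the 10 lists of cell type markers differed between the genotypes alongside these changes. Over all tested clusters 2.96% passed as higher and 4.84% as lower. The summed levels below cover every marker of a list with a cluster and give most weight to its brightest markers. Of 5 tested markers of lymphoid-primed progenitors 5 passed as lower. The log2 of the summed linear levels was 14.31 to 14.39 in the knockout, against 15.23 to 15.24 in wild type. Of 7 tested B cell markers 4 passed as lower (8.35 to 8.43 in the knockout and 8.66 to 8.73 in wild type). Of 12 tested HSC and progenitor markers 5 passed as lower (16.46 to 16.51 in the knockout and 16.84 to 16.90 in wild type), and of 5 tested megakaryocyte markers 3 passed as higher (10.83 to 10.88 in the knockout and 9.88 to 9.94 in wild type). The megakaryocyte sum mostly follows F2r, chosen after its values were seen (10.46 in the knockout and 9.31 in wild type). Itga2b and Gp9, chosen likewise, each rose by 0.56, and Pf4 and Vwf did not pass. Flt3 is counted in both the lymphoid-primed and the HSC list. Of 4 tested mast cell and basophil markers 2 passed as higher (12.94 to 13.00 in the knockout and 12.50 to 12.65 in wild type). The other lists had 1 passing marker each: 1 higher of 8 granulocyte markers (16.88 to 16.95 in the knockout and 16.96 to 16.97 in wild type), 1 higher of 8 monocyte and macrophage markers (12.42 to 12.98 in the knockout and 12.65 to 12.90 in wild type), 1 lower of 4 erythroid markers (9.81 to 9.84 in the knockout and 9.96 to 10.03 in wild type), 1 lower of 4 T cell markers (8.22 to 8.24 in the knockout and 8.27 to 8.38 in wild type) and 1 lower of 3 stromal and endothelial markers (9.65 to 9.73 in the knockout and 10.15 to 10.17 in wild type). Some of these sums stand mostly for 1 marker, as seen after the values were known. The granulocyte sum follows Mpo (16.87 in the knockout and 16.93 in wild type), while Prtn3, which passed, rose by 0.43. The stromal and endothelial sum follows Pecam1 (9.50 in the knockout and 10.02 in wild type). The mast cell and basophil sum follows Cpa3 (12.93 in the knockout and 12.52 in wild type). Other sums did not follow their brightest marker, as seen likewise. The erythroid sum fell while its brightest marker, Tfrc, was 9.44 in the knockout and 9.33 in wild type. Car1, the erythroid marker that passed, was 7.30 in the knockout and 8.34 in wild type. The brightest B cell marker, Cd79b, did not pass (7.31 in the knockout and 7.40 in wild type). The part of the shifts in these lists in the changes of Pde3b, Pde7a, Crem and Sik1 was not tested. In sorted cells measured in bulk, fewer cells of a type and less RNA per cell cannot be told apart.

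The rest of the pathway was described through 9 lists by role, 115 genes without the 10 above. Of these, 105 had a cluster and 82 were bright enough to test. Of the 82, 12 passed as higher and 6 as lower, or 22%, against 7.8% of all tested clusters and 10.7% of protein-coding genes. Leaving out 1 array at a time gave 6 to 8 higher, with 6 or 7 without any array but knockout array 2, and 3 to 5 lower, with 3 without any wild-type array. With arrays shifted to a common median, 7 passed as higher and 5 as lower. Without the list of CREB targets, 3 of 67 passed as higher and 6 as lower, or 13.4%. By list, the share passing was 60% for CREB targets, 33.3% for cyclases, 30% for receptors and 14.3% for adenosine supply. It was 12.5% for anchors, 11.1% for other phosphodiesterases and 10% for kinase A and EPAC. It was 0% for G proteins and for the relatives and coactivators of CREB. The median log2 change over all 9 lists was 0.01. The lists were drawn up with earlier results of these data known, among them rises of Nr4a2, Nr4a3, Atf3 and Ptgs2, and their counts are no independent evidence of a direction.

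**Figure D4:**
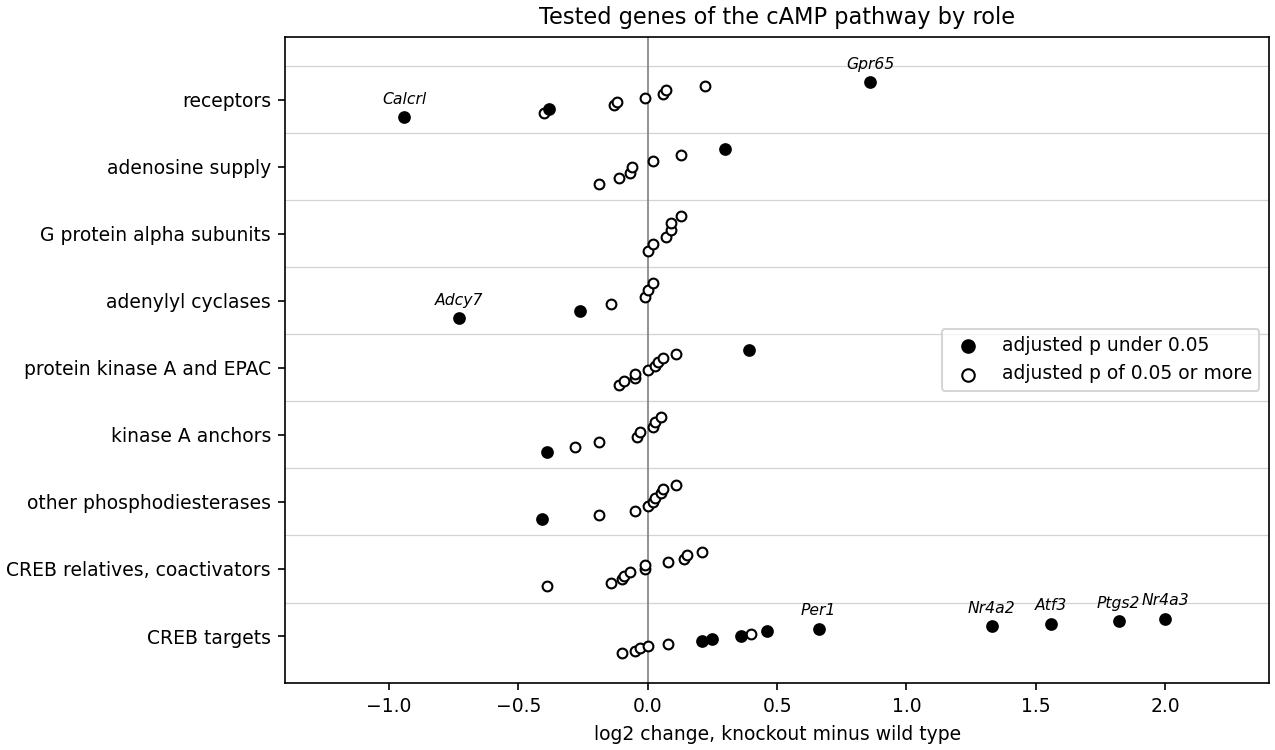
Log2 change, knockout minus wild type, of each of the 82 tested pathway genes, in rows by role. Filled points passed at an adjusted p under 0.05 and open points did not, and names are given for passing genes past 0.6 in either direction. The CREB targets extend furthest right, to 2.0 for Nr4a3, and Calcrl lies furthest left at -0.94.

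Receptors that raise or lower cAMP moved in both directions: of 10 tested, 1 was higher and 2 were lower. Gpr65, a receptor for extracellular acid coupled to the stimulatory G protein, gave 9.80, 9.60 and 9.71 in the knockout arrays, against 9.01, 8.65 and 8.86 in wild type. It rose by 0.86 (SE 0.10; limma, adjusted p = 0.0058). Calcrl, the receptor for adrenomedullin and the calcitonin gene-related peptide, gave 9.83, 9.88 and 9.78 in the knockout arrays, against 10.73, 10.71 and 10.86 in wild type, a log2 change of -0.94 (SE 0.06; adjusted p = 7.9e-04). Both sets of values are well separated, and both calls held with any 1 array left out. Ramp1, the partner that makes Calcrl a receptor for the calcitonin gene-related peptide, had a log2 change of -0.40 that did not pass (adjusted p = 0.13). Vipr2, a receptor of vasoactive intestinal peptide, fell by 0.38 (adjusted p = 0.018), a call lost without knockout array 1 (0.052) or wild-type array 1 (0.070), 2 (0.080) or 3 (0.063). Ptgir, the prostacyclin receptor, differed by 0.22 (adjusted p = 0.24).

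Of 7 genes that make, take up or remove adenosine, 1 passed. Nt5e, encoding the ectoenzyme CD73 that makes adenosine outside the cell, gave 4.46, 4.37 and 4.48 in the knockout arrays, against 4.13, 4.09 and 4.19 in wild type. It rose by 0.30 (limma, adjusted p = 0.039), but these levels lie close to the limit of 4.09 on dim clusters, and the call was lost in each of the 6 runs without 1 array (adjusted p 0.056 to 0.14). Dpp4, whose product binds adenosine deaminase in human cells, had a log2 change of -0.19 and Adk, encoding adenosine kinase, one of 0.13, and neither passed.

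None of 6 tested G protein alpha subunits passed, a count of 0 by limma, with 1 at an unadjusted p under 0.05. Gnas, the stimulatory subunit, differed by 0.09 and the inhibitory Gnai3 by 0.13. Of 6 tested adenylyl cyclases 2 fell. Adcy7, an isoform abundant in blood cells, gave 9.73, 9.54 and 9.71 in the knockout arrays, against 10.30, 10.48 and 10.38 in wild type. All knockout values were below all wild-type values, and the log2 change was -0.73 (SE 0.08; limma, adjusted p = 0.0036), a call held with any 1 array left out (adjusted p 0.012 to 0.024). Adcy6 had a log2 change of -0.26 (adjusted p = 0.044), lost in each of the 6 runs without 1 array (0.077 to 0.15), and Adcy9 one of -0.14 that did not pass.

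Downstream of cAMP, 1 of 10 tested genes of protein kinase A, its inhibitors and the EPAC exchange factors passed. This share of 10% was close to the 10.7% of protein-coding genes. So were those of the anchors (12.5%) and other phosphodiesterases (11.1%) below. Prkar2a, a regulatory subunit, rose by 0.39 (limma, adjusted p = 0.037), a call lost in 5 of the 6 runs without 1 array (adjusted p up to 0.13) and held without wild-type array 2. The catalytic subunit gene Prkacb differed by -0.11 and the regulatory Prkar1a by 0.11, and neither passed. Of 8 tested genes named as kinase A anchors, Akap8l fell by 0.39 (adjusted p = 0.018). This call was lost without knockout array 1 (0.052) or wild-type array 1 (0.068), 2 (0.071) or 3 (0.087). Akap10 and Akap13 had log2 changes of -0.28 and -0.19 and did not pass. Of 9 other phosphodiesterase genes tested, Pde2a, whose product cleaves cAMP and cGMP and is stimulated by cGMP, fell. It gave 8.46, 8.43 and 8.39 in the knockout arrays, against 8.85, 8.86 and 8.81 in wild type, a log2 change of -0.41 (SE 0.05; adjusted p = 0.0077), held with any 1 array left out. Pde6d and Pde1b differed by -0.19 and 0.11 and did not pass, and 10 more genes of the list were too dim to test. The phosphodiesterase list goes by gene name and does not say that each product cleaves cAMP. The anchor list also goes by gene name and does not say that each product, that of Akap8l included, binds kinase A.

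Of 11 tested relatives, coactivators and kinases of CREB, a count of 0 passed by limma, with 2 at an unadjusted p under 0.05. These were Crtc1, a coactivator held back by SIK kinases, with a log2 change of -0.39 (adjusted p = 0.080), and Atf1, a close relative of CREB, with 0.21 (adjusted p = 0.17).

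Of 15 tested genes known as targets of CREB, 9 rose and 0 fell (median log2 change 0.36). Over all tested clusters 2.96% passed as higher, and over protein-coding genes 4.75%. The list was drawn up with the rises of Nr4a2, Nr4a3, Atf3 and Ptgs2 known, so its count is no independent evidence of a direction. All of the listed targets respond to other signals too, such as stress and growth factors. Nr4a3, encoding an orphan nuclear receptor, gave 12.01, 11.84 and 11.79 in the knockout arrays, against 9.95, 9.94 and 9.76 in wild type. It rose by 2.0 (SE 0.08; limma, adjusted p = 1.5e-04). Per1, a circadian clock repressor induced by cAMP, gave 14.62, 14.49 and 14.49 in the knockout arrays, against 13.87, 13.88 and 13.87 in wild type. It rose by 0.66 (SE 0.05; adjusted p = 0.0010), held with any 1 array left out. The calls of Nr4a2 (1.33), Atf3 (1.56) and Ptgs2 (1.82) also held. The other 4 rises were smaller and lost with arrays left out: Fosb (0.25; without knockout array 1 or any wild-type array), Gem (0.46; without knockout array 1 or 3 or wild-type array 1 or 2), and Maff (0.36) and Rgs2 (0.21), both in each of the 6 runs. The highest adjusted p among those runs was 0.061 for Fosb, 0.078 for Gem, 0.12 for Maff and 0.15 for Rgs2. Nr4a1 differed by 0.08 and Nfil3 by 0.40 and did not pass. The remaining tested targets, Fos, Egr1, Dusp1 and Ppargc1a, chosen after their values were seen, differed by -0.03, -0.05, 0.00 and -0.10. The levels of Fosb (18.57 in the knockout and 18.32 in wild type), Fos (17.99 in the knockout and 18.02 in wild type), Dusp1 (18.50 in both) and Nr4a1 (18.79 in the knockout and 18.71 in wild type) lay near the top of the values, 19.93, where differences may be compressed.

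The start-site windows of these targets were read for the same letters. The core was in all 18 target genes with a window, against 23% of 27025 genes, and the full motif in 4 of them, or 22.2%, against 2.03%. The list names textbook targets, so it was chosen partly for such elements. The core was in 8 of 8 genes that passed as higher and in 5 of 5 tested genes that did not pass, and the full motif in 1 of each. With the core in every listed gene with a window, this comparison cannot show whether the letters go with passing. Fos, Dusp1 and Nr4a1, among those that did not pass, also lay near the top of the values. Stretches of 1 window a gene are shown for targets that passed (Nr4a3, Per1, Atf3 and Maff) and for 1 that did not (Dusp1), picked as examples, with full motifs and cores in capitals. Each is taken around the full motif of the window or, where it has none, around its first core. The Nr4a3 and Dusp1 windows each hold 1 more core outside the stretch, and Per1 and Maff each have another window with a core, not shown. On GRCm38.p6 they lie at chr4:48045055-48045107 on the plus strand (Nr4a3), chr11:69099994-69100053 on the plus strand (Per1), chr1:191183307-191183366 on the minus strand (Atf3), chr15:79347465-79347524 on the plus strand (Maff) and chr17:26508582-26508641 on the minus strand (Dusp1).
Nr4a3: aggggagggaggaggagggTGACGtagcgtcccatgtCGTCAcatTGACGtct
Per1: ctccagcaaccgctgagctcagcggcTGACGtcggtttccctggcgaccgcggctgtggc
Atf3: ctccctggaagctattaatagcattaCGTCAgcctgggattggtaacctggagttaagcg
Maff: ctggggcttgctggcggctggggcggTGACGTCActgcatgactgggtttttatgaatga
Dusp1: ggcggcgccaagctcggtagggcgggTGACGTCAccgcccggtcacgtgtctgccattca
Maff and Dusp1 hold the full palindrome, while the stretches of the others hold only the core. Counted from the start site, the motif so centred begins at position -231 in Nr4a3, -132 in Per1, -7 in Atf3, -29 in Maff and -143 in Dusp1.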

How the data were processed

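Total RNA was labelled with biotin and hybridised to 6 whole-transcript arrays. The authors deposited 1 table of values for 65956 transcript clusters, read here as log2 from their form (2.04 to 19.93, 2 decimals, array medians 4.40 to 4.48). MAS5 is named per the submitters' processing notes with no role; no source used here gives the background correction, normalization or log base, so fold sizes depend on that reading. The platform annotation dates from some years ago and gave 30604 clusters 1 symbol, 2146 several and 33206 none here; symbols of 827 were updated by gene ID through RefSeq, though not for matching the 10 genes.

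The dimmest 40% of clusters by mean over 6 arrays (up to 4.09) were left out, and 39543 were fitted with limma 3.58.1 (R 4.3.3), genotype as the only term, empirical Bayes with an intensity trend, two-sided p, Benjamini-Hochberg over all of them. Errors are moderated SEs, and SDs cover 3 arrays. No outcome of a run of the fit on simulated data is reported here. Tables used Python 3.11.15 and pandas 2.3.3, plots matplotlib 3.10.9. Precision is limited by the number of arrays.

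The 10 genes and all lists were chosen with earlier results of these data known. Text names all 10, every passing pathway gene, up to 2 others with the smallest p in each list, and the 5 genes most like the passing member with the largest change; Cdk19 is named as the check of the labels, Flt3 for its place in 2 lists, and other genes given with values are marked as chosen after their values were seen. Alternatives covered normalization, the filter, the variance model, the replicate block and leaving out each array.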

Additional observations from a re-analysis of the deposited data

How the results depend on the processing

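The 13 alternatives changed no direction of the 7 measured genes or of the 18 pathway genes that passed; Nt5e was too dim to test under the stricter filter. With arrays shifted to a common median, 1 member and 7 pathway genes passed as higher, against 2 and 12 in the fit reported, and with no filter 1 member did. Leaving out 1 array at a time gave 1 to 1 members higher and 1 to 2 lower, 6 to 8 pathway genes higher and 3 to 5 lower, and 540 to 970 clusters higher and 761 to 1507 lower among all tested, against 1172 and 1914 with all arrays. Fewer arrays lower the number of calls by construction.

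The labels number replicates 1 to 3 in both genotypes. Same-numbered arrays did not deviate together (correlations of -0.14, -0.10 and 0.02 across tested clusters), and arrays of unlike number gave -0.13 to 0.21. These values do not say whether same-numbered arrays were prepared or run together. With the replicate block, 1 member passed as higher and 1 as lower, 7 pathway genes as higher and 3 as lower, and 630 clusters as higher and 1083 as lower. Each member had 1 cluster, so averaging clusters of a gene gave the same values. No detection calls or control probes were used here, so what signal over background limits was judged only by the filter.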
